A study of Oryza sativa with 8 samples.

Results

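Small heat shock proteins and heat stress transcription factors were followed across 8 RNA-seq libraries of rice (Oryza sativa) seedling leaves. Members were genes whose name or description held an Hsp20 or small heat shock protein term, a kDa heat shock protein term, or a heat stress transcription factor term, with Hsp70, Hsp90 and DnaJ proteins dropped. This gave 94 matches, of which 9 were dropped, so 85 of 43019 genes were members, and both deposited tables listed all 85. The members were 10 class I small heat shock proteins, 8 of class II or another class, 5 of organelles, 15 other Hsp20-domain genes, 5 HSP20-like chaperones, 25 heat stress factors (13 of class A, 8 of class B and 4 of class C), 2 HSF-binding proteins and 15 unnamed gene models that resemble a member.

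The glk1glk2 double mutant, the dgp1 mutant and their wild type DJ were each sampled on low phosphate (LP, 10 µM KH2PO4, leaves taken 6 days after transfer) and under control supply (CK). The wild type ZH11 was sampled 24 h after transfer to medium without phosphate (NP) and under control supply (CK). All seedlings were 2 weeks old at transfer and were raised on the same solid medium, and the labels name no heat treatment and no harvest time for the controls. The transcription factors GLK1 and GLK2 activate genes of chloroplast development, and DGP1 binds them and lowers their activity. The labels do not give the alleles or the number of lines and pooled plants. Each of the 8 groups had 1 library, so no replicate spread exists, no p-value is given, and every comparison describes a pair of libraries.

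Small heat shock proteins form large oligomers that hold unfolding proteins in a soluble state until ATP-driven chaperones such as Hsp70 and Hsp100 refold them. Class A heat stress factors (HSFs) bind heat shock elements and activate these genes, while many class B factors lack an activation domain and act as repressors or as co-regulators. In unstressed leaves most small heat shock protein genes are nearly silent, and HSF-binding proteins are known in Arabidopsis to dampen HSF activity.

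The libraries held 12525772 to 16566008 reads on genes, but far fewer separate cDNA fragments in some. Genes with few reads clustered at 148 reads in glk1glk2 LP, 186 in glk1glk2 CK, 22 in dgp1 CK, 7 in DJ LP and 49 in DJ CK, and that number was taken as the reads of 1 fragment. This gave 84634 fragments in glk1glk2 LP, 76923 in glk1glk2 CK, 723036 in dgp1 CK, 2366573 in DJ LP and 281066 in DJ CK. No such cluster appeared in dgp1 LP, ZH11 NP or ZH11 CK, where reads were used as fragments, which gives an upper limit. A value of 0 for a 1-kb gene therefore allowed up to 27.5 FPKM (read level per gene length and library size) in glk1glk2 LP, 31.2 in glk1glk2 CK, 0.222 in dgp1 LP, 5.3 in dgp1 CK, 1.02 in DJ LP, 11.3 in DJ CK, 0.175 in ZH11 NP and 0.189 in ZH11 CK, at a floor of 3 fragments. GLK1 had 49.3 FPKM in glk1glk2 LP and 40.9 in glk1glk2 CK, against 129.6 in DJ LP and 179 in DJ CK. GLK2 had 53 and 32.2 FPKM in those mutant libraries against 86.9 and 96.2 in DJ. The listed values of both were thus lower in the double mutant than in DJ and not 0, and no interval is given for them. In dgp1, GLK1 had 89.2 FPKM in LP and 273 in CK. The dgp1 label was not checked by the level of DGP1. Leaf markers varied between libraries, CAB1R from 2084 to 12930 FPKM, CAB2R from 213 to 14755 and Lhcb1.1 from 6.83 to 4991. The root gene LSI1 had 12.2 to 63.2 FPKM and RCC3 6.55 FPKM in DJ CK alone; the seed genes RAG2 and GLUA1 reached at most 0.99 FPKM, and LSI2, OSH1, OSH15, RTS and GLUB1, which mark root, shoot meristem, tapetum and seed, were at 0 throughout. In bulk tissue fewer cells of a type and less RNA per cell cannot be told apart.

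Of the 85 members, 18 were at 0 in all 8 libraries, 40 reached 5 FPKM in at least one, and 24 reached 20 FPKM. Members with at least 3 fragments numbered 14 in glk1glk2 LP, 10 in glk1glk2 CK, 47 in dgp1 LP, 23 in dgp1 CK, 41 in DJ LP, 19 in DJ CK, 59 in ZH11 NP and 53 in ZH11 CK. The summed level of the 38 small heat shock protein genes (all classes, organelles and other Hsp20-domain genes) was 706 FPKM in glk1glk2 LP, 693 in glk1glk2 CK, 409 in dgp1 LP, 596 in dgp1 CK, 227 in DJ LP, 518 in DJ CK, 494 in ZH11 NP and 537 in ZH11 CK. DJ LP thus had the lowest sum of the 8 libraries and the glk1glk2 pair the highest, although ZH11 levels come from a separately normalized table. A single gene made up much of each sum, from 15.8% (HSP18.8 in DJ LP) to 53.7% (HSP17.9B in ZH11 NP). The summed level of the 25 heat stress factors ran from 103 FPKM in DJ CK to 211 FPKM in dgp1 LP.

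**Figure D1:**
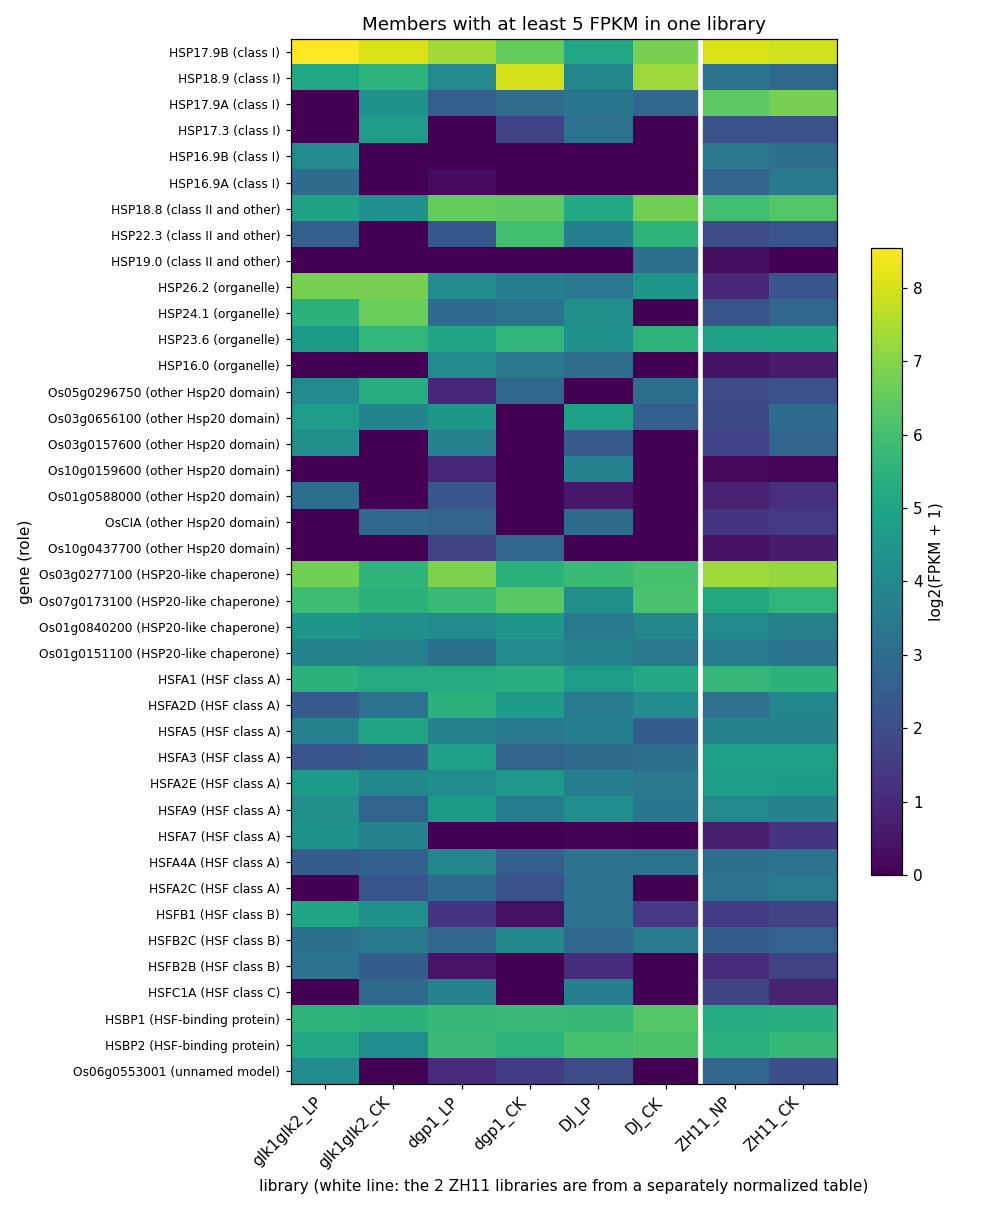
Levels, as log2(FPKM + 1), of the 40 members with at least 5 FPKM in one library (rows, with their role) in the 8 libraries (columns). HSP17.9B was bright in every column, HSP18.9 was brightest in dgp1 CK and DJ CK, and HSP26.2 and HSP24.1 were brightest in the 2 glk1glk2 columns.

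Class I small heat shock proteins, which act in the cytosol and nucleus, were represented in leaves mainly by 3 genes. HSP17.9B had 373 FPKM in glk1glk2 LP, 271 in glk1glk2 CK, 163 in dgp1 LP, 90.7 in dgp1 CK, 32.8 in DJ LP, 111 in DJ CK, 266 in ZH11 NP and 244 in ZH11 CK. It was the highest member in both glk1glk2 libraries, in dgp1 LP and in both ZH11 libraries, and both glk1glk2 values lay above the other 4 of that table. HSP18.9, described as similar to class I, had 33.2 FPKM in glk1glk2 LP, 45.5 in glk1glk2 CK, 15.2 in dgp1 LP, 252 in dgp1 CK, 13.9 in DJ LP, 156 in DJ CK, 8.87 in ZH11 NP and 6.39 in ZH11 CK. It stood high in dgp1 CK and DJ CK alone. HSP17.9A had 84.7 FPKM in ZH11 NP and 109.6 in ZH11 CK, against 0 to 19.3 FPKM in the other 6 libraries.

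The other class I genes were low. HSP17.3 reached 25.4 FPKM in glk1glk2 CK and 8.3 in DJ LP, HSP16.9B 15.2 FPKM and HSP16.9A 7.14 FPKM in glk1glk2 LP, and the glk1glk2 values rested on 1.84, 1.25 and 0.635 estimated fragments. In ZH11 NP and ZH11 CK, HSP16.9B had 9.41 and 7.89 FPKM and HSP16.9A 5.96 and 9.99 FPKM. Class I genes lie in 2 clusters, 5 genes on chromosome 1 (1934117 to 1952681) and 4 on chromosome 3 (8805567 to 8838527), by the files' own coordinates; the genome build was not given in the sources used here. Genes within a cluster are alike in sequence, how the authors counted reads shared between them was not given in the sources used here, and the split of reads among them is uncertain. On chromosome 1, HSP17.9B alone reached 20 FPKM in any library.

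Small heat shock proteins of class II and other classes were represented mainly by HSP18.8 and HSP22.3. HSP18.8, of class V, had 29.4 FPKM in glk1glk2 LP, 19.2 in glk1glk2 CK, 91.6 in dgp1 LP, 85.1 in dgp1 CK, 35.9 in DJ LP, 105 in DJ CK, 60.1 in ZH11 NP and 75.8 in ZH11 CK. DJ LP and both glk1glk2 libraries were on the low side. HSP22.3, of class VI, had 5.05 FPKM in glk1glk2 LP, 0 in glk1glk2 CK, 4.11 in dgp1 LP, 60.8 in dgp1 CK, 12 in DJ LP, 46.3 in DJ CK, 2.96 in ZH11 NP and 3.64 in ZH11 CK. Like HSP18.9, it stood high in dgp1 CK and DJ CK. The class II gene HSP19.0 was listed at 7.96 FPKM in DJ CK (1.84 fragments), at 0.269 in ZH11 NP and at 0 in the other 6 libraries.

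Among the organelle forms, the mitochondrial HSP26.2 and HSP24.1 were highest in glk1glk2. HSP26.2 had 109 FPKM in glk1glk2 LP, 109 in glk1glk2 CK, 16.3 in dgp1 LP, 11.7 in dgp1 CK, 9.69 in DJ LP, 21.9 in DJ CK, 0.943 in ZH11 NP and 3.73 in ZH11 CK. HSP24.1 had 43.8 FPKM in glk1glk2 LP, 94.8 in glk1glk2 CK, 6.86 in dgp1 LP, 8.68 in dgp1 CK, 17.6 in DJ LP, 0 in DJ CK, 3.64 in ZH11 NP and 6.03 in ZH11 CK. Both glk1glk2 libraries lay above the other 4 for each gene, on 5.3 to 11.1 fragments. The third mitochondrial gene, HSP23.6, had 24.2 FPKM in glk1glk2 LP, 50.1 in glk1glk2 CK, 31.9 in dgp1 LP, 47.4 in dgp1 CK, 18.9 in DJ LP, 44.8 in DJ CK, 28.8 in ZH11 NP and 30.2 in ZH11 CK, and the low-phosphate value was the lower one in each of the 3 pairs. The peroxisomal HSP16.0 had 16 FPKM in dgp1 LP, 9.52 in dgp1 CK and 7.22 in DJ LP, was at 0 in both glk1glk2 libraries and in DJ CK, and had 0.323 and 0.523 FPKM in ZH11 NP and ZH11 CK. The chloroplast form HSP26.7, singled out after its values were seen because it is the member directed to the chloroplast, was at 0 in all 6 libraries of the first table, with 0.635 FPKM in ZH11 NP and 0.125 in ZH11 CK.

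**Figure D2:**
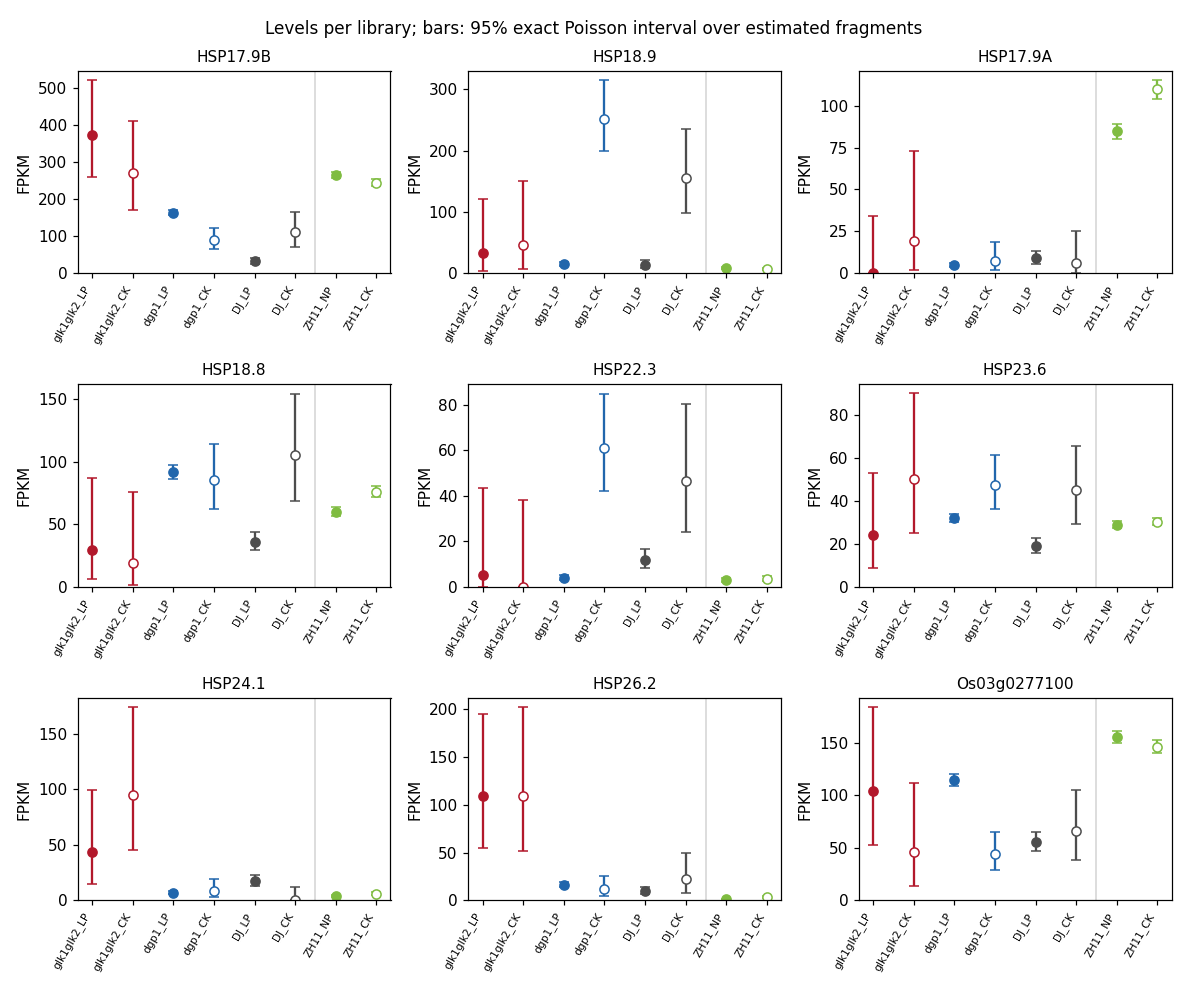
FPKM of 8 small heat shock proteins and the HSP20-like gene Os03g0277100 in the 8 libraries; filled points are low-phosphate or phosphate-free plants, open points controls, and bars are 95% exact Poisson intervals over estimated fragments, which cover counting error only. Bars were widest in glk1glk2, and the dgp1 CK and DJ CK bars of HSP18.9 lay above those of dgp1 LP and DJ LP.

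The 15 other Hsp20-domain genes were mostly low, and 3 of them were at 0 throughout. Os03g0656100 had 25 FPKM in glk1glk2 LP, 13.4 in glk1glk2 CK, 22.2 in dgp1 LP, 0 in dgp1 CK, 28.8 in DJ LP, 4.81 in DJ CK, 2.72 in ZH11 NP and 7.14 in ZH11 CK. Its listed level was higher on low phosphate in each of the 3 pairs and lower in ZH11 NP than in ZH11 CK. The control value rested on 0.633 fragments in DJ CK and 0.64 in glk1glk2 CK. Of these 3 increases, only that in dgp1 was resolved, where 22.2 FPKM stood above a control floor of 10.7 FPKM. Os05g0296750 had 15.6 FPKM in glk1glk2 LP and 39.1 in glk1glk2 CK (1.06 and 2.34 fragments), against 0 to 7.52 FPKM in the other 6 libraries. Os03g0157600 had 17.8 FPKM in glk1glk2 LP (1.36 fragments), 12.5 in dgp1 LP and 4.44 in DJ LP and was listed at 0 in the 3 controls of that table. The floor of 3 fragments for this gene was 44.6 FPKM in glk1glk2 CK, 7.58 in dgp1 CK and 16.2 in DJ CK. Only the dgp1 LP value lay above the floor of its control. Os10g0159600 had 12.7 FPKM in DJ LP and at most 0.946 FPKM elsewhere. OsCIA (7.04 FPKM in DJ LP), Os01g0588000 (7.48 in glk1glk2 LP) and Os10g0437700 (6.05 in dgp1 CK) did not pass 8 FPKM in any library.

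Of the 5 HSP20-like chaperone domain genes, whose fold is shared with p23-type co-chaperones, 4 had at least 5 FPKM in every library. Os03g0277100 had 104 FPKM in glk1glk2 LP, 45.9 in glk1glk2 CK, 114 in dgp1 LP, 44.1 in dgp1 CK, 55.5 in DJ LP, 65.8 in DJ CK, 155 in ZH11 NP and 146 in ZH11 CK. Os07g0173100 had 58.1 FPKM in glk1glk2 LP, 44.3 in glk1glk2 CK, 53.4 in dgp1 LP, 81.8 in dgp1 CK, 17.6 in DJ LP, 67.8 in DJ CK, 35.8 in ZH11 NP and 47.3 in ZH11 CK. DJ LP was the lowest library for Os07g0173100. Os01g0840200 had 9.97 to 22.2 FPKM and Os01g0151100 7.87 to 16.1 FPKM over the 8 libraries.

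Class A heat stress factors were led by HSFA1, a member of the group that starts the heat response in tomato and Arabidopsis. HSFA1 had 44.2 FPKM in glk1glk2 LP, 36 in glk1glk2 CK, 37.7 in dgp1 LP, 39.8 in dgp1 CK, 24.6 in DJ LP, 34.4 in DJ CK, 50.4 in ZH11 NP and 43.6 in ZH11 CK. It varied little and passed 2-fold in none of the 8 pairs. HSFA2D, of the A2 group that amplifies the response, had 4.43 FPKM in glk1glk2 LP, 8.28 in glk1glk2 CK, 43.2 in dgp1 LP, 24.2 in dgp1 CK, 10.4 in DJ LP, 16.4 in DJ CK, 8.18 in ZH11 NP and 14.1 in ZH11 CK. Both dgp1 values lay above the other 4 of the table and both glk1glk2 values below, on 1.11 and 1.83 fragments. HSFA2E ran from 9.41 FPKM in DJ CK to 26.3 FPKM in ZH11 NP.

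HSFA3, which in Arabidopsis acts downstream of the drought and heat factor DREB2A, had 3.74 FPKM in glk1glk2 LP, 4.58 in glk1glk2 CK, 28.5 in dgp1 LP, 5.6 in dgp1 CK, 6.76 in DJ LP, 7.79 in DJ CK, 27.9 in ZH11 NP and 28.1 in ZH11 CK. dgp1 LP was the high library of its table. HSFA9 had 17.6 FPKM in glk1glk2 LP, 5.77 in glk1glk2 CK, 24.1 in dgp1 LP, 11.1 in dgp1 CK, 17.2 in DJ LP, 9.11 in DJ CK, 15.4 in ZH11 NP and 12.8 in ZH11 CK, with the phosphate-limited value the higher one in each of the 4 pairs. HSFA5, which in Arabidopsis and tomato restrains the A4 group, had 12.4 FPKM in glk1glk2 LP, 32.1 in glk1glk2 CK, 13.3 in dgp1 LP, 9.95 in dgp1 CK, 11.8 in DJ LP, 4.67 in DJ CK, 12.4 in ZH11 NP and 12.8 in ZH11 CK. HSFA4A reached 13.8 FPKM in dgp1 LP and had 4.6 to 8.73 FPKM in the other 7 libraries. HSFA2C had 0 to 10.3 FPKM, and its gene length differs between the 2 tables. HSFA7 had 20.1 FPKM in glk1glk2 LP and 13.1 in glk1glk2 CK, on 3.34 and 1.92 fragments, against at most 1.49 FPKM in the other 6 libraries.

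Of class B, HSFB1, a co-activator in tomato and a repressor in Arabidopsis, had 32 FPKM in glk1glk2 LP, 18.5 in glk1glk2 CK, 1.46 in dgp1 LP, 0.308 in dgp1 CK, 8.55 in DJ LP, 1.67 in DJ CK, 1.87 in ZH11 NP and 2.34 in ZH11 CK. Within the first table both glk1glk2 values lay above the other 4 and both dgp1 values below, with DJ between them. The control values rested on 2.78 fragments in glk1glk2, 0.273 in dgp1 and 0.694 in DJ, so this order was not resolved under control supply. HSFB2C had 7.82 FPKM in glk1glk2 LP, 9.99 in glk1glk2 CK, 6.05 in dgp1 LP, 15 in dgp1 CK, 6.15 in DJ LP, 10.8 in DJ CK, 4.68 in ZH11 NP and 5.47 in ZH11 CK, the lower value of each pair being the phosphate-limited one. HSFB2B had 8.06 FPKM in glk1glk2 LP and 4.77 in glk1glk2 CK, on 1.32 and 0.688 fragments, and at most 2.15 FPKM elsewhere. In class C, HSFC1A had 0 FPKM in glk1glk2 LP, 6.75 in glk1glk2 CK, 13 in dgp1 LP, 0 in dgp1 CK, 12 in DJ LP, 0 in DJ CK, 2.38 in ZH11 NP and 0.804 in ZH11 CK. It was listed well above 0 in both DJ LP and dgp1 LP and at 0 in their controls.

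Both HSF-binding proteins were detected in every library. HSBP1 had 37.4 FPKM (ZH11 NP) to 77.7 FPKM (DJ CK), and HSBP2 17.3 FPKM (glk1glk2 CK) to 71.2 FPKM (DJ CK). For both, the 2 glk1glk2 values lay below the other 4 of the table. Of the 15 unnamed models, 11 overlap a named member on the opposite strand, and 9 of these 11 had no read in any library, including the partner of HSFB1, which itself had 1783 reads in all. One unnamed model, Os06g0553001, passed 5 FPKM, with 16.3 FPKM in glk1glk2 LP (1.13 fragments). The 43 members detected below 20 FPKM reached at most 17.8 FPKM.

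**Figure D3:**
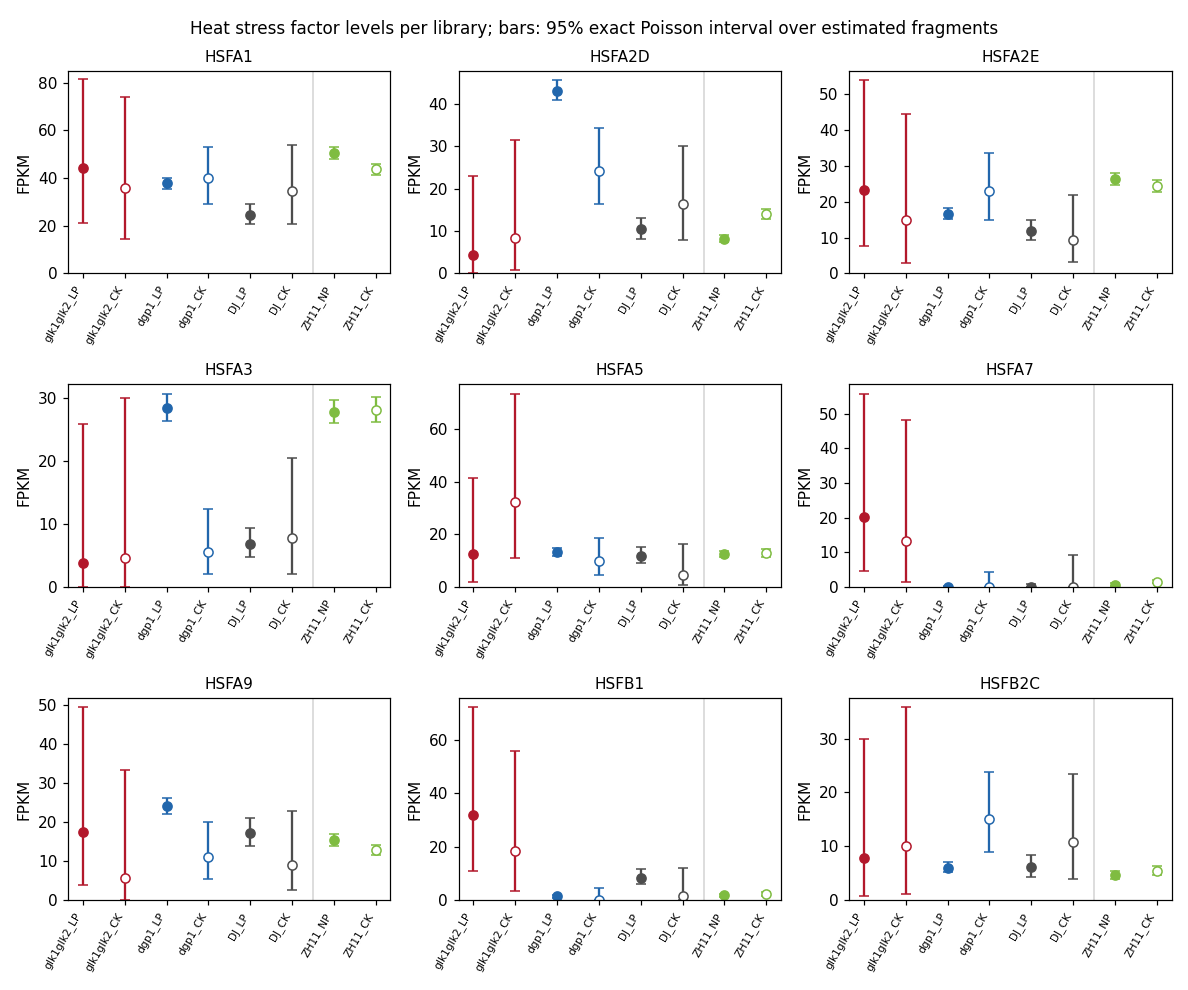
FPKM of 9 heat stress factors in the 8 libraries, with filled points for phosphate-limited plants, open points for controls and 95% exact Poisson intervals over estimated fragments as bars. HSFA2D and HSFA3 peaked in dgp1 LP within the first 6 libraries, and HSFB1 and HSFA7 were highest in the 2 glk1glk2 libraries.

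The response of the wild type DJ to low phosphate was asked first. The small heat shock proteins HSP18.9, HSP17.9B, HSP18.8, HSP22.3 and HSP23.6 were lower in DJ LP than in DJ CK, while other small heat shock proteins, low or at 0 in DJ CK, were higher, and no heat stress factor was called lower. A member was called when it differed at least 2-fold on the log2(FPKM + 1) scale with at least 5 FPKM in one of the pair. Of the 32 members with at least 5 FPKM, 10 were called higher, against a background of 23.1% of all genes so filtered, and 9 lower, against a background of 24.3%. The 15 small heat shock proteins gave 6 higher and 8 lower with a median log2 ratio of -1.10, the 11 heat stress factors 4 higher and 0 lower with a median of 0.31, and all genes had a median of -0.05. The median of small heat shock proteins turned positive under other settings, to 0.87 with at least 1 FPKM, 0.54 with no filter and 0.06 when scaled to own read totals, so it gives no direction for the group. Over the 8 pairs, the sign of this median turned under some setting in 6, and that of heat stress factors in 4. Because of the filter on low values, a member at 0 in one library had to be called, so these counts are descriptions.

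HSP18.9 was 11.2-fold lower in DJ LP, with a 95% interval over estimated fragments of 5.93 to 21.3 (exact conditional binomial, counting error only, as for the intervals that follow in parentheses). HSP22.3 was 3.84-fold lower (1.84 to 7.51), HSP17.9B 3.39-fold lower (2.07 to 5.37), HSP18.8 2.93-fold lower (1.82 to 4.56) and HSP23.6 2.37-fold lower (1.5 to 3.62). The HSP20-like gene Os07g0173100 was 3.86-fold lower (2.02 to 7). The 6 decreases, with an interval that left out 1 as in 16.7% of all genes, covered class I, class V, class VI, mitochondrial and HSP20-like genes. Upwards, HSP24.1 was at least 1.73-fold, HSFC1A at least 1.67-fold and Os10g0159600 at least 1.5-fold higher in DJ LP than the floor of 3 fragments in DJ CK, where all 3 were listed at 0; of all genes 10.8% were higher with such an interval. Markers also differed in this pair: LSI1 had 25.1 FPKM in DJ LP and 63.2 in DJ CK, the root-specific RCC3 0 and 6.55, and the RBCS gene Os12g0274700 446 and 4540, and their part in these differences was not tested. The other 7 called higher, among them HSFA5 (2.52-fold, 0.689 to 19.4) and HSFB1 (5.12-fold, 0.668 to 848), were at 0 in DJ CK or had intervals that included 1, so the increases of HSFs were not resolved at this depth except for HSFC1A.

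In dgp1, HSP18.9 and HSP22.3 were far lower in dgp1 LP than in dgp1 CK, and 3 class A factors were higher. Of 30 members with at least 5 FPKM, 8 were called higher (background 24%) and 5 lower (background 20.7%). The 14 small heat shock proteins gave 3 higher and 4 lower with a median log2 ratio of -0.10 (0.44 with at least 10 FPKM), and the 10 heat stress factors gave 4 higher and 1 lower with a median of 0.84, beside a median of 0.03 over all genes. An interval that left out 1 was found for 7 higher (background 19.3%) and 3 lower (background 18.2%). HSP18.9 was 16.6-fold lower (12.2 to 22.4) and HSP22.3 14.8-fold lower (9.39 to 23). HSFB2C was 2.48-fold lower (1.44 to 4.04).

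HSFA3 was 5.08-fold higher in dgp1 LP (2.28 to 14.3), HSFA4A 2.8-fold (1.17 to 8.84), HSFA9 2.17-fold (1.19 to 4.41) and the HSP20-like gene Os03g0277100 2.59-fold (1.75 to 4.01). HSFC1A was at least 3.85-fold, Os03g0656100 at least 2.08-fold and Os03g0157600 at least 1.65-fold higher in dgp1 LP than the floor in dgp1 CK. HSP17.9B was not called, with 163 FPKM in dgp1 LP and 90.7 in dgp1 CK. The DJ and dgp1 pairs share no library. The calls higher in both were HSFC1A, Os03g0656100 and OsCIA, 30% of the 10 in DJ and 37.5% of the 8 in dgp1, where over all genes the shared calls were 34.6% and 32.8%. The calls lower in both were HSP18.9, HSP22.3 and Os05g0296750, 33.3% of the 9 in DJ and 60% of the 5 in dgp1, where over all genes they were 43.7% and 50.3%. No member was called in opposite directions in these pairs, where 32 and 30 members had at least 5 FPKM. Of all genes 524 were, where 15357 and 15600 had at least 5 FPKM. With so few members the 0 shows no contrast to all genes.

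For glk1glk2, LP against CK could not be resolved for single members. Of 34 members with at least 5 FPKM, 8 were called higher (background 23.3%) and 8 lower (background 23.1%), and none of the 16 had an interval that left out 1. Over all genes, 0.433% were called higher and 0.64% lower with an interval that left out 1. Of the abundant members, HSP17.9B had 373 FPKM in LP and 271 in CK, HSP26.2 109 in each, and Os03g0277100 104 in LP and 45.9 in CK. HSP24.1 was 2.16-fold lower (0.69 to 7.76) and HSP23.6 2.07-fold lower (0.699 to 6.88) in glk1glk2 LP. The medians of 16 small heat shock proteins and 11 heat stress factors were 0.23 and 0.29 on the log2 scale, beside -0.02 over all genes.

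**Figure D4:**
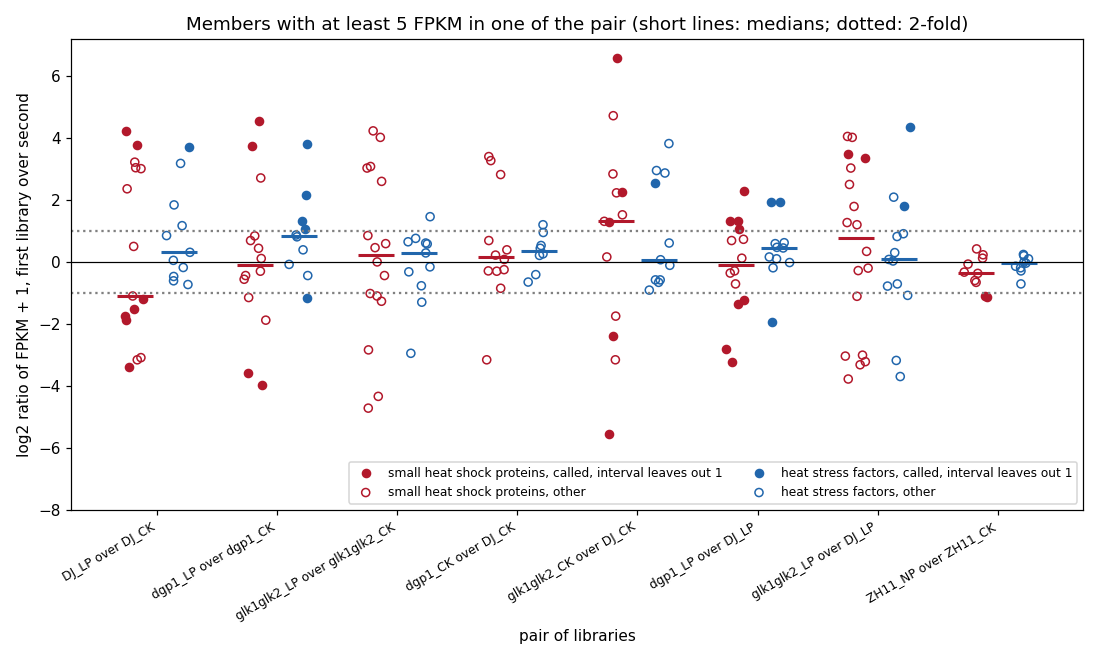
Log2 ratio of FPKM + 1, first library over second, for small heat shock proteins (red) and heat stress factors (blue) with at least 5 FPKM in one of each pair; filled points passed 2-fold with a fragment interval that left out 1, short lines are medians and dotted lines mark 2-fold. DJ_LP over DJ_CK had 2 filled red points above 0 and 5 below, and glk1glk2_LP over glk1glk2_CK had no filled point.

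The effect of each mutation was read within one phosphate supply; the comparisons at control share DJ CK, those on low phosphate share DJ LP, and the DJ pair uses both. Under control supply dgp1 and DJ had similar levels of the abundant small heat shock proteins. Of 26 members, 4 were called higher in dgp1 CK (background 16.1%) and 1 lower (background 14.1%), and no interval left out 1, while 4.6% of all genes were higher and 4.11% lower with such an interval. HSP18.9 had 252 FPKM in dgp1 CK and 156 in DJ CK, HSP22.3 60.8 and 46.3, HSP17.9B 90.7 and 111, and HSP18.8 85.1 and 105. HSFA2E was 2.44-fold higher in dgp1 CK (0.92 to 8.16).

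On low phosphate the 2 deepest libraries of the table, dgp1 LP and DJ LP, were compared, and members were called at shares near the background. Of 31 members, 8 were called higher in dgp1 LP (background 20.9%) and 5 lower (background 13.4%), and all 13 had an interval that left out 1 (background 20.7% and 13.3%). Over all genes, 3066 of the 3097 called higher and 1963 of the 1987 called lower also had such an interval. HSP17.9B was 4.98-fold higher in dgp1 LP (3.98 to 6.29), HSFA3 4.21-fold (3.01 to 6.06), HSFA2D 4.14-fold (3.26 to 5.34), Os07g0173100 3.04-fold (2.25 to 4.22), HSP18.8 2.55-fold (2.07 to 3.17), HSP16.0 2.22-fold (1.31 to 4.02) and Os03g0277100 2.06-fold (1.75 to 2.44). HSFB1 was 5.84-fold lower (3.56 to 9.67), Os10g0159600 13.5-fold lower (7.63 to 24.9), HSP22.3 2.93-fold lower (1.87 to 4.53) and HSP24.1 2.57-fold lower (1.83 to 3.58). HSP17.3 had 0 FPKM in dgp1 LP and 8.3 in DJ LP. Reads served as fragments in dgp1 LP, so the floor there is a minimum, no bound is given for HSP17.3, and the intervals of this pair are the narrowest the data allow. The medians were -0.08 for 14 small heat shock proteins, 0.45 for 11 heat stress factors and 0.08 for all genes. The 8 class A factors had a median of 0.53, with 2 called higher (background 20.9%) and 0 lower (background 13.4%). Scaled to own read totals, the median of heat stress factors was -0.06 and that of all genes -0.48. Under control supply, HSFA2D had 24.2 FPKM in dgp1 CK and 16.4 in DJ CK and HSFA3 5.6 and 7.79; whether the mutant's effect differed between supplies was not tested.

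In glk1glk2, HSP17.9B and the mitochondrial HSP26.2 were higher than in DJ at both supplies. Under control supply, 12 of 30 members were called higher in glk1glk2 CK (background 27.4%) and 5 lower (background 31.3%), and an interval that left out 1 was found for 4 higher (background 6.12%) and 2 lower (background 6.9%). HSP24.1 was at least 9.31-fold higher than the floor in DJ CK, HSFA5 6.88-fold higher (1.19 to 65.6), HSP26.2 4.97-fold (1.57 to 17.7) and HSP17.9B 2.44-fold (1.31 to 4.51). HSP18.8 was 5.48-fold lower (1.25 to 62.7), and HSP22.3, listed at 0 in glk1glk2 CK and at 46.3 FPKM in DJ CK, was at least 1.49-fold lower when set at the floor of 3 fragments, with an upper bound of 0.959 on the ratio from counting error. HSP18.9 was 3.43-fold lower (0.914 to 24). The medians were 1.31 for 13 small heat shock proteins and 0.07 for 11 heat stress factors, beside -0.08 for all genes.

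On low phosphate, 15 of 38 members were called higher in glk1glk2 LP than in DJ LP (background 23.5%) and 9 lower (background 26%), and an interval that left out 1 was found for 5 higher (background 8.6%) and 0 lower (background 5.13%). HSP17.9B was 11.4-fold higher (7.38 to 17.1), HSP26.2 11.2-fold (5.04 to 23.4), HSFB1 3.75-fold (1.23 to 9.2) and Os07g0173100 3.31-fold (1.09 to 8.03). HSFA7 had 20.1 FPKM in glk1glk2 LP and 0.0317 in DJ LP, a ratio whose lower bound was 12.2. The medians were 0.77 for 18 small heat shock proteins, 0.08 for 13 heat stress factors and -0.02 for all genes; with at least 1 FPKM that of small heat shock proteins was -0.24. The control and low-phosphate comparisons share no library. Members called higher in both were HSP17.9B, HSP24.1, HSP26.2, HSFA7, HSFB1 and Os05g0296750, 50% of the 12 at control and 40% of the 15 on low phosphate, where over all genes the shared calls were 26.9% and 31.7%. Only HSP17.9B and HSP26.2 had an interval that left out 1 at both supplies. They were 50% of 4 at control and 40% of 5 on low phosphate, where over all genes such shares were 32.9% and 23.7%. These shares rest on few members. HSP22.3 was the one member called lower in both, 20% of the 5 at control and 11.1% of the 9 on low phosphate, where over all genes they were 26.7% and 32.6%. In opposite directions were called 5 members, where 30 at control and 38 on low phosphate had at least 5 FPKM. Of all genes 1178 were, where 15533 and 15352 had at least 5 FPKM. Across the 6 libraries, both glk1glk2 values lay above the other 4 for 7 of 40 members (17.5%, background 11.5%) and below them for 5 (12.5%, background 16.6%). The dgp1 pair lay above the other 4 for 3 members, HSFA2D, HSP16.0 and Os10g0437700 (7.5%, background 6.74%), and below for HSFB1 (background 3.58%), and the DJ pair above for HSBP2 (background 4.26%) and below for HSFA1, HSFA2E and Os01g0840200 (7.5%, background 3.2%). HSP16.0 and Os10g0437700 were listed at 0 in glk1glk2 LP, glk1glk2 CK and DJ CK. The floors of 3 fragments there were 37.9, 43 and 15.6 FPKM for HSP16.0 and 32.4, 36.7 and 13.3 for Os10g0437700, so neither pattern was resolved. HSFB1 rested on 0.273 fragments in dgp1 CK and 0.694 in DJ CK. The glk1glk2 libraries also had the fewest fragments, and depth and genotype cannot be told apart here.

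After 24 h without phosphate, few members of ZH11 passed 2-fold. Of 26 members, 0 were called higher in ZH11 NP (background 1.61%) and 2 lower (background 3.19%). These were the Hsp20-domain genes Os03g0157600, 2.64-fold lower (1.66 to 4.3), and Os03g0656100, 2.63-fold lower (1.59 to 4.48). The medians were -0.35 for 10 small heat shock proteins, -0.04 for 9 heat stress factors and -0.03 for all genes. HSP17.9B had 266 FPKM in ZH11 NP and 244 in ZH11 CK, and HSFA1 50.4 and 43.6. Below the 5 FPKM minimum, HSP26.2 was 3.96-fold lower in ZH11 NP (2.21 to 7.55) and HSFC1A 2.96-fold higher (1.77 to 5.17), and HSFA2D was 1.72-fold lower (1.49 to 1.98), short of 2-fold. Reads served as fragments in both libraries, so these intervals are the narrowest possible. Genotype, length of treatment and phosphate level all differ from the DJ pair, so the responses of ZH11 and DJ were not compared.

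Other chaperone genes and co-factors of the heat response were taken by name or description (318 genes: Hsp70, Hsp90, Hsp100, DnaJ, BAG and FKBP proteins, HSA32, MBF1-type bridging factors and galactinol synthases; the text match also took in some that are no chaperones). In DJ LP against DJ CK, 39 of 188 were called higher and 32 lower (background 23.1% and 24.3% of all genes), in dgp1 LP against dgp1 CK 36 and 27 of 191 (24% and 20.7%), and in glk1glk2 LP against glk1glk2 CK 46 and 37 of 192 (23.3% and 23.1%). These shares lay near or below the background. The medians were within 0.14 of 0 in all 8 pairs. HSA32, needed for lasting thermotolerance in Arabidopsis and rice, had 13.2 FPKM in glk1glk2 LP, 18.1 in glk1glk2 CK, 8.52 in dgp1 LP, 15.2 in dgp1 CK, 3.44 in DJ LP and 18.7 in DJ CK. The disaggregase HSP101, partner of small heat shock proteins, did not pass 6.51 FPKM in any library. For both galactinol synthases dgp1 LP was the high library, with OsGolS1 at 85.6 FPKM against 4.35 in dgp1 CK and wsi76 at 59.1 against 1.2. Of the 2 MBF1-type genes, 1 was called lower in this pair and 0 higher (background 20.7% and 24%), and the other was not called. Their median log2 ratio of -3.44 is the midpoint of 2 unlike values and describes neither gene. The endoplasmic reticulum Hsp90 GRP94 had 88.1 FPKM in glk1glk2 LP and 104 in glk1glk2 CK, against 28 in dgp1 LP, 18.3 in dgp1 CK, 34.4 in DJ LP and 12.7 in DJ CK. The Hsp90 matches as a set did not share this. In glk1glk2 CK against DJ CK, 5 of 19 were called higher and 6 lower (background 27.4% and 31.3%). In glk1glk2 LP against DJ LP, 3 of 20 were called higher and 4 lower (background 23.5% and 26%).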

How the data were processed

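The authors deposited 1 table of 6 libraries (glk1glk2, dgp1, DJ) and 1 of 2 libraries (ZH11). The headers give no unit; the deposited values were taken as FPKM, because value times gene length was a whole multiple (within 0.01) of 1 step per library, for 99.9958% of values in DJ LP and 100% in the other 7 libraries. The sources used here name no aligner, counter or genome build; the library kit is directional, per the labels' protocols. Reads were recovered from that step, and the read number at which low genes piled up (searched from 5 to 600 reads) was taken as 1 fragment. No ratio was formed between the tables, which were normalized separately. Ratios used log2(FPKM + 1), and calls needed 2-fold and 5 FPKM in one of the pair. Intervals (95%) were called only above 3 fragments in one library; they treat estimated fragments as counts and are approximate. Members named have 20 FPKM in one library or, per role, the 3 highest or 3 lowest ratios of a comparison. Members, lists and rules were chosen with earlier results of these data known. Alternatives were other pseudocounts, filters, scalings, folds and fragment peaks. The scripts (Python 3.11.15, numpy 2.4.6, pandas 2.3.3, scipy 1.17.1) were tested on simulated data. Promoter and protein sequences were not used here.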

Additional observations from a re-analysis of the deposited data

Results flagged for a closer look

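Some members were called in opposite directions in different genotypes or supplies. The difference was not tested for any of them, since each group had 1 library, and values are log2 ratios of FPKM + 1.

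For low phosphate against control, HSFC1A had 3.81 in dgp1 and -2.95 in glk1glk2, against 3.70 in DJ. OsCIA had 2.71 in dgp1 and -2.84 in glk1glk2, against 3.01 in DJ. HSP22.3 had -3.60 in dgp1 and 2.60 in glk1glk2, against -1.86 in DJ. HSFA5 had -1.30 in glk1glk2 and 1.17 in DJ, HSP24.1 -1.10 and 4.22, and HSP17.3 -4.72 and 3.22. In glk1glk2 all of these but HSP24.1 and HSFA5 rested on under 3 estimated fragments in each library, and none of these glk1glk2 ratios had an interval that left out 1.

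For mutant against DJ, HSP24.1 in dgp1 had -1.24 on low phosphate and 3.27 under control supply. In glk1glk2, HSFC1A had -3.70 on low phosphate and 2.95 under control supply, HSP18.9 1.20 and -1.75, HSP17.9A -3.32 and 1.52, HSP17.3 -3.22 and 4.72, and OsCIA -3.01 and 2.84. For none of these 5 in glk1glk2 did the interval leave out 1 at either supply.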

How the results depend on the processing

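Each group had 1 library with no replicate number, so no fit with a replicate block and no left-out replicate could be had; a fit of phosphate supply over the 3 genotypes as blocks was left out. Of 872 settings tried on the ratios of called members, 772 kept the call, 100 kept the direction but lost the call, and 0 reversed. Pseudocounts, filters and folds cannot change the sign of a ratio, so only the scalings could have reversed one. A pseudocount of 0.1, at least 1 FPKM and no filter could not lose a call either. Scaled to own read totals, 97 ratios kept the call and 12 lost it, and scaled by the median of ratios 108 and 1. Counts of called members moved by over 1.5 times in 38 of 129 settings, as follows. With a pseudocount of 5, dgp1 LP over dgp1 CK had 2 lower, dgp1 LP over DJ LP 5 higher and 3 lower, and ZH11 0 lower. With at least 1 FPKM, and equally with no filter, DJ LP over DJ CK had 21 higher, dgp1 LP over dgp1 CK 13 higher and 8 lower, dgp1 CK over DJ CK 11 higher and 4 lower, dgp1 LP over DJ LP 8 lower, glk1glk2 LP over DJ LP 17 lower, and ZH11 4 lower. With at least 10 FPKM the counts were 5 higher in DJ LP over DJ CK, 3 lower in dgp1 LP over dgp1 CK, 5 higher in glk1glk2 LP over glk1glk2 CK, 1 higher and 0 lower in dgp1 CK over DJ CK, 3 lower in dgp1 LP over DJ LP, 4 lower in glk1glk2 LP over DJ LP and 0 lower in ZH11. Scaled to own read totals, dgp1 LP over dgp1 CK had 3 lower, dgp1 CK over DJ CK 2 higher and 2 lower, and dgp1 LP over DJ LP 4 higher; this scaling moved the median of all genes to 0.39, 0.15, -0.26, 0.37 and -0.48 in DJ LP over DJ CK, dgp1 LP over dgp1 CK, dgp1 CK over DJ CK, glk1glk2 CK over DJ CK and dgp1 LP over DJ LP. At 3-fold, dgp1 LP over dgp1 CK had 5 higher and 3 lower, glk1glk2 LP over glk1glk2 CK 4 lower, dgp1 LP over DJ LP 3 higher and 3 lower, and ZH11 0 lower. Medians moved by over 0.5 in 8 cases each for small heat shock proteins and heat stress factors (HSFs). For small heat shock proteins they were 0.87 (at least 1 FPKM), 0.54 (no filter) and 0.06 (own totals) in DJ LP over DJ CK, 0.44 (at least 10) and 0.40 (no filter) in dgp1 LP over dgp1 CK, 0.69 (at least 10) in dgp1 LP over DJ LP, and -0.24 (at least 1) and -0.34 (no filter) in glk1glk2 LP over DJ LP. For HSFs they were 1.09 (at least 1) and 0.84 (no filter) in DJ LP over DJ CK, 1.42 (at least 1 and no filter), 0.61 (at least 10) and 0.99 (own totals) in glk1glk2 CK over DJ CK, -0.75 (no filter) in glk1glk2 LP over DJ LP and -0.06 (own totals) in dgp1 LP over DJ LP. The cause was not tested. With the further peak of DJ CK and glk1glk2 taken as 1 fragment, intervals left out 1 for 57 calls instead of 45. Depth limits the glk1glk2 and DJ CK values most.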
